A study of Homo sapiens with 14 samples.

Results

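The 10 genes described here are 5 transcription factors that drive epithelial-mesenchymal transition (EMT), SNAI1, SNAI2, ZEB1, ZEB2 and TWIST1, and 5 genes that hold cells in the epithelial state, ESRP1, OVOL1, OVOL2, GRHL2 and ELF3, called epithelial guards below. They were chosen by gene symbol, and all 10 were listed in both kinds of table, among 36601 genes of the single-cell matrices and 60624 of the bulk tables. The samples came from colorectal cancer cell lines kept for up to 15 days without passage (long-term culture, LTC). SW480 and SW620 are established lines, SW480 from a primary tumour and SW620 from a metastasis. The control SW620 cells carried an empty FLAG vector (SW620-FLAG), and SW620-TET2CD cells overexpressed the catalytic domain of TET2, an enzyme that oxidizes 5-methylcytosine in DNA. Both lines were sampled for single-cell libraries on days 6, 9, 12 and 15, 1 library per line and day. The 6 bulk libraries were SW480 on day 6, SW620 on day 6, and the day 15 cells of SW620-FLAG and of SW620-TET2CD split by place, inside or outside the colonies, also 1 library each. The labels of both assays name the control as SW620. The study's text gives the vector for the single-cell libraries and does not state it for the bulk ones, whose day 15 control is called SW620-FLAG here. Cells outside the colonies were those that passed a strainer after a mild digestion, and cells inside were those it retained. Only 1 SW620-TET2CD line was sequenced, so the transgene and anything else that differs between the lines cannot be told apart.

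EMT factors bind E-box sequences in the promoters of junction and polarity genes such as CDH1 (E-cadherin) and repress them together with histone-modifying corepressors. The guards act against them. GRHL2, OVOL1 and OVOL2 are transcription factors that repress ZEB1 and maintain junction genes, ELF3 is an epithelial ETS factor, and ESRP1 is a splicing regulator that gives the epithelial isoforms of transcripts such as CD44 and FGFR2. ZEB1 and the miR-200 microRNAs repress each other, which makes the pair a switch between both states. A carcinoma line that keeps E-cadherin can express members of both classes at once.

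After the filters on cells, 48282 of 67056 barcodes were kept, with 3894 to 8154 cells and 48186195 to 74185723 unique molecular identifiers (UMIs, each standing for 1 captured transcript) in a library. Median UMIs per cell ran from 6640 (SW620-FLAG, day 9) to 13479 (SW620-FLAG, day 6), and 3 UMIs, taken as the limit that a count of 0 allows, were worth 0.0404 to 0.0623 CPM (counts of a gene scaled to one common library total). TET2 was at 2.11 to 3.90 CPM in SW620-FLAG, while SW620-TET2CD had 40.2 to 107 CPM. The level in all 8 libraries thus matched the line named in the label. Of 10 markers of colorectal epithelium, 6 were above 1 CPM in all libraries (EPCAM, KRT8, KRT18, KRT19, VIL1 and CDX2), and KRT20, CDX1 and CEACAM5 stayed below 1 CPM. The 7 fibroblast markers summed to 16.6 to 28.7 CPM on days 6 and 9 and to 8.37 to 12.9 CPM on days 12 and 15, mostly LUM and COL1A1, with COL1A2 and COL3A1 at or near 0. The 6 leukocyte markers summed to 7.48 to 17.4 CPM on days 6 and 9 and to 23.8 to 57.6 CPM on days 12 and 15, through LYZ and CD68, while PTPRC, CD3E and MS4A1 were at or near 0. The 5 endothelial markers summed to at most 2.61 CPM. In the 6 bulk libraries the sums ran from 4.15 to 32.88 TPM for fibroblast, 7.22 to 24.61 for leukocyte and 0.73 to 30.66 for endothelial markers, against 5755 to 11509.6 for colorectal epithelium. The part of these markers in the results was not tested. Pairs of libraries shared at most 23 cell barcodes.

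The order of the 10 genes was read from the bulk tables, where values are TPM (transcripts scaled by length to a common total). ELF3 and ESRP1 took the first and second place in all 6 libraries, at 11.3 to 114 and 22.8 to 63.6 TPM. The middle group was SNAI1 (3.21 to 15.8 TPM), SNAI2 (3.29 to 8.88), ZEB1 (3.61 to 9.66) and OVOL2 (4.60 to 8.60), whose ranges over libraries overlapped. GRHL2 was at 0.010 to 1.26 TPM, OVOL1 at 0 to 0.40 and ZEB2 at 0 to 0.26. TWIST1 was listed at 0 in all 6. Epithelial guards were thus both the most and among the least abundant members, and 3 EMT factors were expressed beside them.

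The single-cell libraries gave the same picture. TWIST1 had 0 UMIs in all 8, ZEB2 had 7 in the 4 SW620-FLAG libraries and 33 in the 4 SW620-TET2CD libraries, and OVOL1 had 5 and 39. The other 7 members passed the filter on low counts and were tested with edgeR's quasi-likelihood test across all genes.

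**Figure D1:**
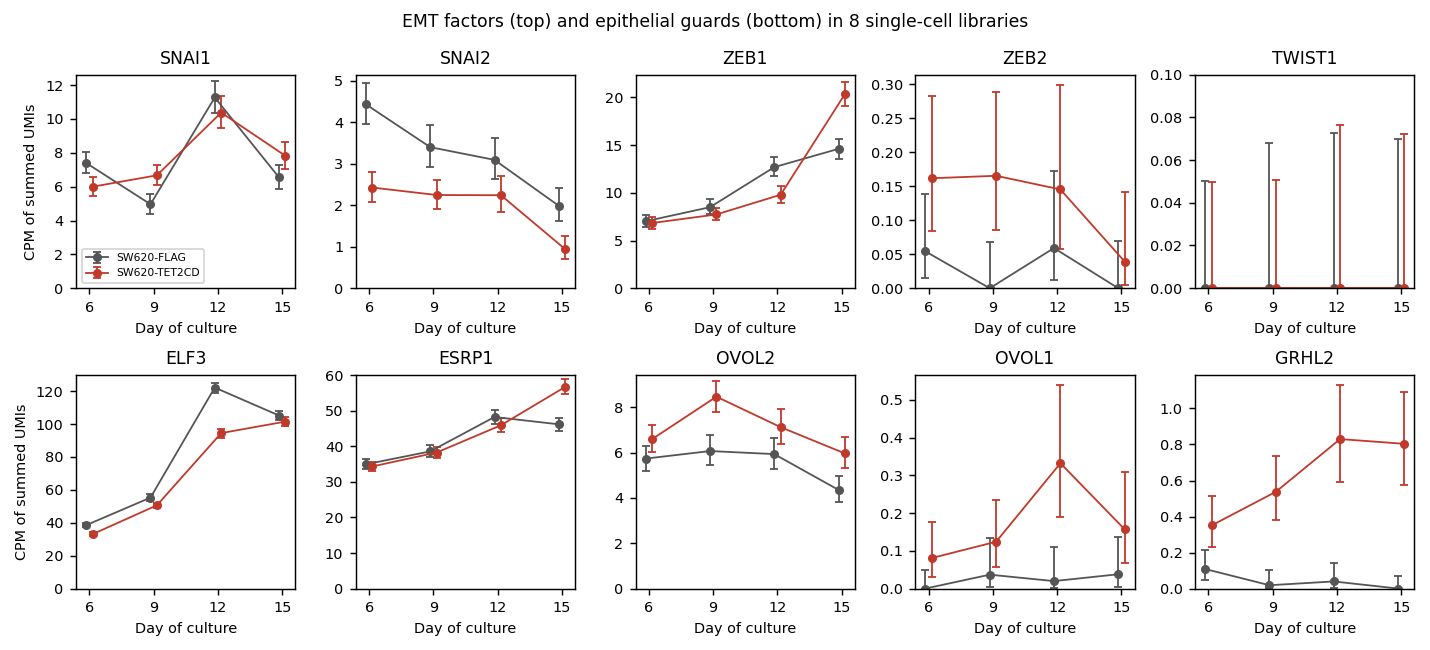
CPM of summed UMIs (y axis) against day of culture (x axis) for each gene, with exact Poisson 95% intervals that cover counting error only, in SW620-FLAG (grey) and SW620-TET2CD (red), 1 library per point and points shifted slightly sideways. ELF3 and ZEB1 are higher on days 12 and 15 than on days 6 and 9 in both lines, while GRHL2 is above 0.3 CPM only in SW620-TET2CD.

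The first comparison asked which members differed between late (days 12 and 15) and early (days 6 and 9) culture. ELF3, ZEB1 and ESRP1 rose and SNAI2 fell, so that 1 EMT factor rose with 2 guards while another EMT factor fell. That is 4 of the 7 members tested, against 57.7% of all 16993 genes tested, a share near the background. Of the genes called, 51.0% were higher late, and 63.4% with upper-quartile scaling, which moved the median of all genes by 0.17 on the log2 scale. The median change of the 7 was 0.32 on the log2 scale and that of all genes 0.039.

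ELF3, which activates differentiation genes of gut and airway epithelium, moved most. In the order of days 6, 9, 12 and 15, it stood at 38.6, 55.3, 122 and 105 CPM in SW620-FLAG and 33.1, 50.6, 94.5 and 102 CPM in SW620-TET2CD. Every late library lay above every early one. The fitted rise was 1.14 ± 0.154 (log2, SE; 2.20-fold; edgeR, Benjamini-Hochberg adjusted p = 0.000164). After each cell was thinned to 5000 UMIs, the share of cells with an ELF3 UMI was 17.1% on day 6 and 42.2% on day 12 in SW620-FLAG (exact 95% intervals 16.1 to 18.2% and 40.6 to 43.8%), and 14.2% and 35.9% in SW620-TET2CD. On day 15 the share in SW620-FLAG was 35.3% (34.0 to 36.6%), lower than on day 12. In SW620-TET2CD it was 35.2%, with an interval of 33.9 to 36.5% that overlapped the 34.4 to 37.4% of day 12.

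ZEB1, the E-box-binding repressor of CDH1 and of the miR-200 genes, was at 7.02, 8.49, 12.7 and 14.6 CPM on the 4 days in SW620-FLAG, while SW620-TET2CD had 6.83, 7.73, 9.80 and 20.3 CPM. Late and early libraries again did not overlap. The rise was 0.82 ± 0.193 (1.76-fold; edgeR, adjusted p = 0.00442). In thinned cells a ZEB1 UMI was found in 3.35% of SW620-FLAG cells on day 6 and 6.96% on day 15, and in 3.23% and 9.20% of SW620-TET2CD cells.

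ESRP1 was at 35.0, 38.6, 48.3 and 46.2 CPM in SW620-FLAG, while SW620-TET2CD had 34.4, 38.3, 46.0 and 56.8 CPM, without overlap between late and early. Its rise of 0.32 ± 0.103 (1.25-fold; edgeR, adjusted p = 0.0227) was lost in 6 of 16 alternatives, among them no filter on low counts, every barcode kept, and leaving out the day 6 library of either line or the SW620-TET2CD library of day 9 or day 15, with adjusted p up to 0.122. ESRP2, its paralog, moved the other way, by -0.71 (edgeR, adjusted p = 0.000691), and it was singled out after its value was seen. In bulk SW620, ESRP2 was at 38.97 TPM on day 6 and at 44.14 and 46.76 TPM inside and outside on day 15, so its direction differed between the assays.

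SNAI2 (Slug) was at 4.43, 3.40, 3.09 and 1.99 CPM in SW620-FLAG, while SW620-TET2CD had 2.43, 2.25, 2.24 and 0.941 CPM. Within each line the late libraries lay below the early ones, but on days 9 and 12 of SW620-TET2CD the values differed by less than their counting error. The fitted change was -0.70 ± 0.264 (1.63-fold lower; edgeR, adjusted p = 0.0409). The call was lost in 8 of 16 alternatives (upper-quartile scaling, no term for line, every barcode, and leaving out the day 6 or day 15 library of either line or the day 9 library of SW620-TET2CD), with adjusted p up to 0.118.

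The remaining members did not pass. SNAI1 (Snail) peaked on day 12, at 11.3 CPM in SW620-FLAG and 10.4 CPM in SW620-TET2CD, and was at 4.96 to 7.82 CPM on the other days. Its fitted difference was 0.41 ± 0.189 (edgeR, adjusted p = 0.0876), and it passed with upper-quartile scaling (0.58, adjusted p = 0.0253) and without SW620-FLAG day 15 (0.50, adjusted p = 0.0456). It was lower without the day 12 library of SW620-FLAG (0.26, adjusted p = 0.301), SW620-FLAG day 9 (0.29) or SW620-TET2CD day 12 (0.30). OVOL2 ran from 4.35 to 6.06 CPM in SW620-FLAG, while SW620-TET2CD spanned 5.96 to 8.46 CPM, with a difference of -0.31 ± 0.146 (edgeR, adjusted p = 0.0859). GRHL2 gave 0.27 ± 0.525 (edgeR, adjusted p = 0.674).

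**Figure D2:**
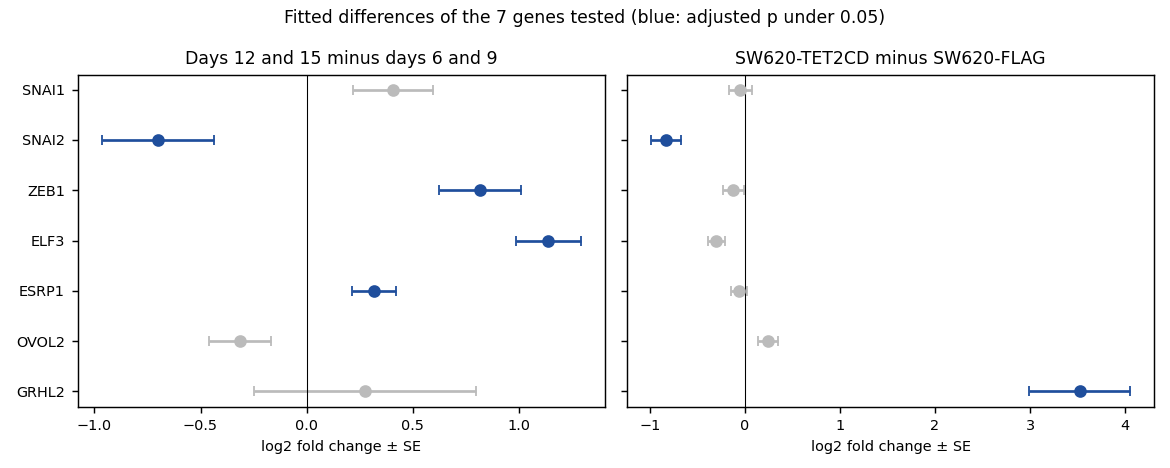
Fitted log2 fold change with its SE (x axis) for the 7 genes tested (y axis), late against early on the left and line against line on the right, with genes past adjusted p 0.05 in blue. Late culture had higher ELF3, ZEB1 and ESRP1 and lower SNAI2; between the lines only GRHL2 and SNAI2 passed among the 7.

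Sequence around ZEB1 and ELF3 is shown because both rose together and because E-boxes and miR-200 sites are the letters through which the members are known to act. The RefSeq promoter table held 3 of the 10 genes (ZEB1, ZEB2 and ELF3). In the 250 bases before the start (GRCh38.p14, strand of the gene, 5′ to 3′), capitals mark the E-box read by SNAI and ZEB factors, CACCTG or its reverse complement CAGGTG. ZEB1 and ELF3 each held 1 match and ZEB2 none, and 17.5% of 35116 promoter windows of that length held at least 1.
ZEB1 (chr10:31318167-31318416, plus strand): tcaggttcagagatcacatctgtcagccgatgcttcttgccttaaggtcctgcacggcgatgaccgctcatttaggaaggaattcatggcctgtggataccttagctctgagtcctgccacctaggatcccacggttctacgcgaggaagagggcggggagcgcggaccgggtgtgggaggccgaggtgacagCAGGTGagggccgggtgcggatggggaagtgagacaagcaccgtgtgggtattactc
ELF3 (chr1:202010337-202010586, plus strand): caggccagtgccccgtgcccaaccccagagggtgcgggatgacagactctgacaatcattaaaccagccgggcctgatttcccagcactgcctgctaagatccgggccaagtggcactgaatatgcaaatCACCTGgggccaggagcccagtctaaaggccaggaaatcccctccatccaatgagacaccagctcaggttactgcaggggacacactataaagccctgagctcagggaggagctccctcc

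The ZEB1 window held 15 CG dinucleotides and the ELF3 window 4, against a median of 11 over all windows. Searched on both strands in the same windows, the letters CACGTG and AACCGGTT, the latter being a GRHL site, were absent from ZEB1, ZEB2 and ELF3. Of all windows, 6.34% and 0.117% held them.

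The miR-200 family has its members in 2 clusters, and their mature sequences from RefSeq (GRCh38.p14) fall into 2 seed groups. Capitals mark the seed, bases 2 to 8, which pairs with targets.
hsa-miR-200c-3p: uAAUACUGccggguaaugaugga
hsa-miR-200b-3p: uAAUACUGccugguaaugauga
hsa-miR-429: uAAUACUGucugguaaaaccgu
hsa-miR-141-3p: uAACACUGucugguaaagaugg
hsa-miR-200a-3p: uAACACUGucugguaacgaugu

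A search of the 3′ untranslated region (UTR) of the main GENCODE v44 transcript of each member, on the transcript strand only, looked for CAGTATT, which pairs with the first seed, and CAGTGTT, which pairs with the second. ZEB1 held 6 and 3 of them in 2540 bases, and ZEB2 held 5 and 4 in 5370 bases. Among 1179 UTRs within 10% of the length of that of ZEB1, 26.7% held at least 1 CAGTATT and 0.0848% held as many. The UTR of ZEB1 may itself be in that set, so the last share need not stand for another UTR. Among the other 8 members, matches were found in SNAI2 (1 and 0), ESRP1 (1 and 1) and GRHL2 (0 and 1). A match is a description of letters and not a measured site. Examples from ZEB1 (GRCh38, plus strand, capitals marking the match) are the following.
ZEB1 site at chr10:31527618-31527640: attgttttatcttatCAGTATTa
ZEB1 site at chr10:31528492-31528514: ctgatttttacctatCAGTATTa
ZEB1 site at chr10:31528782-31528804: tgagatttgatttaaCAGTGTTa

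Mature microRNAs were not measured here, but the host transcript of miR-200c and miR-141, MIR200CHG (chr12:6963226-6964447, plus strand), was, and it is named here after its values were seen. It stood at 0.190, 0.221, 1.38 and 1.15 CPM on the 4 days in SW620-FLAG, while SW620-TET2CD had 0.553, 0.620, 1.74 and 2.18 CPM, on 12 to 111 UMIs. The late libraries lay above the early ones in both lines, and the rise was 2.00 ± 0.253 (log2, SE; edgeR, adjusted p = 0.000118). The host transcript and ZEB1 therefore rose in the same libraries. In bulk SW620, MIR200CHG was at 5.86 TPM on day 6 and at 20.52 and 20.04 TPM on day 15 inside and outside. In SW620-TET2CD on day 15 it was at 18.88 TPM inside and 11.33 outside, where ZEB1 was at 5.13 and 9.66 TPM. These MIR200CHG values rest on 12 to 60 estimated counts.

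Genes that work with or under the members were grouped in 10 lists chosen with earlier results known, of which that of the miR-200 and miR-205 host genes had 1 gene tested of 2, the MIR200CHG given above. The share called among all genes late against early, 57.7% (5001 higher and 4807 lower of 16993), is the background for each count, and the genes named have at least 5 CPM on average. Of 30 epithelial genes that SNAI and ZEB factors are known to repress, 15 rose late, 5 fell and 10 did not pass, a share called near the 57.7% of all genes, with a median of 0.24 on the log2 scale. The highest rises were those of TJP3, a tight junction scaffold (1.27 to 10.8 CPM on average, 2.96 ± 0.345, edgeR adjusted p = 7.41e-05), and CDH1 (31.0 to 86.8 CPM, 1.38 ± 0.190, adjusted p = 0.000182). The deepest falls were those of PKP2, a desmosome protein (-0.53), and CRB3, a polarity protein (-0.51). Of 15 mesenchymal genes tested, 8 rose and 3 fell, with ITGA5, the alpha chain of the fibronectin receptor (1.70 to 19.3 CPM, 3.44 ± 0.299, adjusted p = 1.66e-05) ahead, and THBS1 (-1.91) and TAGLN (-1.63) lowest.

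The next 5 lists are read against the same 57.7% of all genes called, and nothing particular to them is drawn from their counts. Of 12 genes listed, as background knowledge, as activated by GRHL2, OVOL or ELF3, 7 rose and 1 fell. Whether these factors act on each of them here was not tested. TGM2 (2.40 to 12.4 CPM, 2.23) and the receptor ERBB3 (64.3 to 186 CPM, 1.42) led, and the polarity gene LLGL2 fell (-0.49). Other epithelial transcription factors gave 5 rises and 2 falls of 14, with EHF, the ETS factor closest to ELF3 in role (29.2 to 79.7 CPM, 1.33 ± 0.194, edgeR adjusted p = 0.000255) rising and TFCP2L1 (-0.46) falling. Other EMT-promoting factors gave 6 rises and 3 falls of 15, with ETS1 (9.19 to 29.5 CPM, 1.58) and WWTR1 (1.31) rising and TCF3 (-0.72) and FOXQ1 (-0.54) falling. SNAI1 stability regulators gave 7 rises and 2 falls of 13, led by the ubiquitin ligase subunits FBXL5 (0.77) and FBXW7 (0.55), with STUB1 (-0.85) and COPS5 (-0.62) falling. TGF-beta pathway genes gave 6 rises and 2 falls of 14, with the inhibitor SKIL (1.17) and the coreceptor TGFBR3 (1.06) rising and BMP7 (-0.92) and BMP4 (-0.88) falling.

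Falls outnumbered rises in 2 lists, where 4807 of all 16993 genes fell and 5001 rose. Of 20 corepressors and partners of SNAI and ZEB factors, 11 fell and 3 rose, with EZH2, the histone H3 lysine methyltransferase, deepest (91.4 to 38.1 CPM, -1.40 ± 0.125, edgeR adjusted p = 1.88e-05), then ID2 (-1.10), while ID1 rose (0.67). Of 12 splicing regulators, 7 fell and 2 rose. PTBP1 (153 to 71.0 CPM, -1.23) and HNRNPM (326 to 154 CPM, -1.22) fell, and MBNL2 (1.55) and PTBP2 (0.55) rose. The median changes of both lists were -0.51 and -0.42, against 0.039 over all genes.

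**Figure D3:**
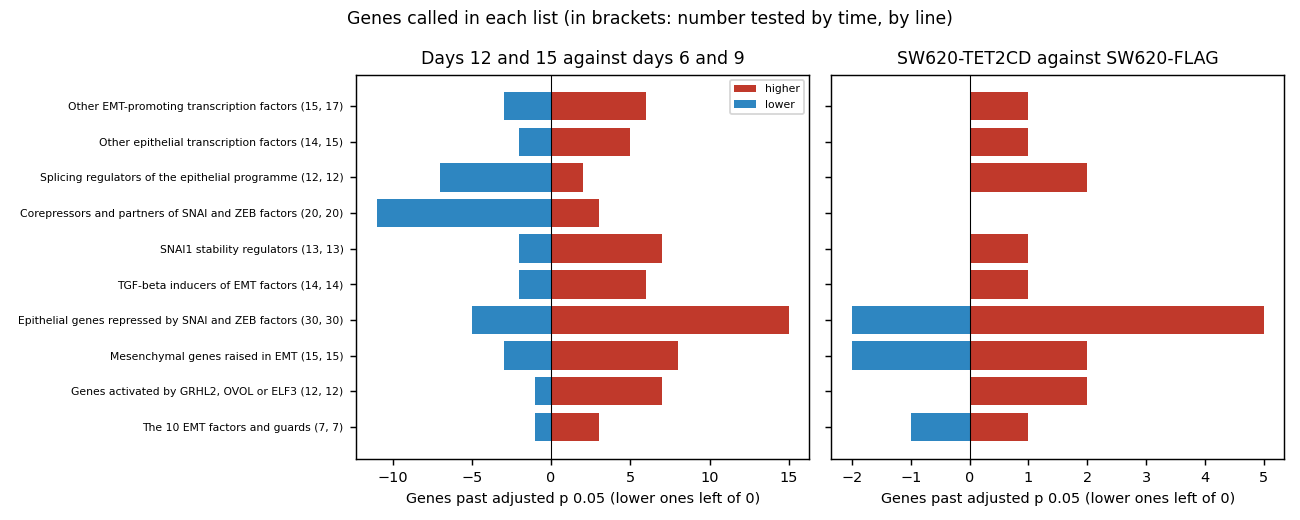
Number of genes past adjusted p 0.05 (x axis; higher in red to the right of 0, lower in blue to the left) in each list (y axis, with the numbers tested by time and by line), late against early on the left and line against line on the right. Corepressors and splicing regulators have more lower than higher genes late, 11 against 3 and 7 against 2.

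Across the 8 libraries ZEB1 and ESRP1 had the most similar levels among the members (Pearson r = 0.955 of log2(CPM + 1)), followed by ESRP1 and ELF3 (0.915) and ZEB1 and ELF3 (0.844), and SNAI2 ran against ZEB1 (-0.727). These are descriptions over 8 libraries that share days, lines and depth. The genes with the most similar pattern were TRIM56, RNPC3 and ZBTB38 for ZEB1 (r of 0.993 to 0.994), GOLGB1, ZNF791 and TNKS for ESRP1 (0.997 to 0.999), MIR3936HG, AC147651.1 and KRT23 for ELF3 (0.992 to 0.993), ACYP2, EMC2 and MFSD11 for SNAI1 (0.961 to 0.983), and MYT1, ZNF557 and ZNF232 for OVOL2 (0.928 to 0.968).

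The second comparison set SW620-TET2CD against SW620-FLAG on the same days. GRHL2 was higher and SNAI2 lower in SW620-TET2CD; the other 5 members tested did not pass. That is 2 of 7, against 4.32% of 17478 genes tested. GRHL2 passed the filter on low counts only through SW620-TET2CD, where it is high, so the 2 of 7 is a description and not support.

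GRHL2 (Grainyhead-like 2, chromosome 8, 101492439 to 101669726, plus strand, GRCh38) activates CDH1 and claudin genes. It had 8, 1, 2 and 0 UMIs on days 6, 9, 12 and 15 in SW620-FLAG (at most 0.108 CPM) and 26, 39, 40 and 41 UMIs in SW620-TET2CD, which made 0.350, 0.538, 0.830 and 0.804 CPM. All SW620-TET2CD libraries were above all SW620-FLAG libraries. Over all days the ratio of the sums was 12.5 (exact 95% interval 6.79 to 25.6, counting error only), and on day 15, where SW620-FLAG was at 0, GRHL2 was at least 14.2-fold higher than the floor of 3 UMIs in that library. The fitted difference was 3.52 ± 0.536 (log2, SE; edgeR, adjusted p = 0.00266). It was 4.97 without the day 6 library of either line, and 3.07 to 3.32 without any other library. Even so, a GRHL2 UMI was found in only 0.544% of thinned SW620-TET2CD cells on day 15 (exact interval 0.362 to 0.785%).

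SNAI2 (chromosome 8, 48917598 to 48921740, minus strand) was lower in SW620-TET2CD on each day, with ratios of 0.548, 0.661, 0.725 and 0.474 on days 6, 9, 12 and 15 and exact 95% intervals that all lay below 1. The fitted difference was -0.83 ± 0.158 (1.78-fold lower; edgeR, adjusted p = 0.0109). Both calls were lost when the term for day was left out (adjusted p = 0.146 for GRHL2, and 1.0 for SNAI2 at a difference of -0.79) and kept in the other 14 alternatives.

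The members that did not pass spread on both sides. ELF3 gave -0.30 ± 0.0928 (edgeR, adjusted p = 0.113) and was lower in SW620-TET2CD on all 4 days, with ratios of 0.773 to 0.965. OVOL2 gave 0.24 ± 0.103 (adjusted p = 0.285) and was higher on all 4 days, with ratios of 1.15 to 1.40. ZEB1 gave -0.12 ± 0.107, and -0.22 to -0.03 over 15 alternatives. Its ratios were below 1 on days 6 to 12 and 1.39 on day 15. ESRP1 gave -0.06 ± 0.0854 and SNAI1 -0.05 ± 0.119. OVOL1 did not pass the filter on low counts, and its 39 UMIs in SW620-TET2CD against 5 in SW620-FLAG made a ratio of 7.35 (exact interval 2.90 to 23.9); for ZEB2 the ratio was 4.44 (1.93 to 11.9).

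Of the 30 epithelial genes, 5 were higher and 2 lower in SW620-TET2CD, and the median difference was -0.01 on the log2 scale, where 4.32% of all genes were called (434 higher and 321 lower of 17478). All 7 are named because they passed, after their values were seen. RAB25, a GTPase of epithelial vesicle traffic, was at 0.0135 to 0.227 CPM in SW620-FLAG, against 1.85 to 8.55 CPM in SW620-TET2CD (5.44 ± 0.280, edgeR adjusted p = 7.58e-07). The protease PRSS8 (2.22 ± 0.307), the cadherin CDH3 (2.12 ± 0.287), the claudin CLDN7 (1.44 ± 0.257) and the clathrin adaptor subunit AP1M2 (0.85 ± 0.170) were higher too, and MUC1 (-0.76 ± 0.0919) and TJP3 (-0.60 ± 0.135) were lower. ELF5, the only other epithelial factor to pass of 15, had 0 UMIs in SW620-FLAG, against 0.703 to 1.80 CPM in SW620-TET2CD. RAB25, PRSS8, CDH3 and ELF5 were at or near 0 in SW620-FLAG and, like GRHL2, passed the filter through SW620-TET2CD, so the count of higher genes is a description.

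Whether time acted differently in both lines was tested as an interaction. No gene of 17478 passed (0%) with edgeR's quasi-likelihood test, where 141 had an unadjusted p under 0.05, and none passed with DESeq2. In simulated data this test recovered 3 of 100 genes changed by 1 on the log2 scale, and 63 of 100 changed by 2. An empty result therefore does not show that time acted alike in both lines. For GRHL2 the interaction was 2.49 ± 1.25 (edgeR, adjusted p = 1.00).

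SW620-TET2CD cells differed in their TET2 level, so cells with a TET2 UMI were set against cells without one in the 4 SW620-TET2CD libraries, in cells thinned to 5000 UMIs; this comparison was added after the data had been seen. GRHL2 was higher in cells with a TET2 UMI in 4 of 4 libraries, at 0.809, 2.09, 2.89 and 2.42 CPM against 0.102, 0.311, 0.601 and 0.891 CPM on days 6, 9, 12 and 15. The difference was 2.09 ± 0.399 (4.24-fold; edgeR, adjusted p = 0.000437). The 17.2% of cells that had a TET2 UMI held 33 of the 74 GRHL2 UMIs (44.6%). GRHL2 passed the filter on low counts through the cells with a TET2 UMI, where it is high, so that 1 of 7 members tested passed, against 16.6% of 14895 genes, is a description. Of the members not tested, ZEB2 had 9 of its UMIs in cells with a TET2 UMI and 8 in cells without (52.9%), and OVOL1 had 5 and 14. The share of ZEB2 was larger than that of GRHL2 but came from the day 6 library, with 7 UMIs against 2. On days 9, 12 and 15 the numbers were 1 against 1, 0 against 4, and 1 against 1.

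Among list genes, named after their values were seen, the same cells had more RAB25 (2.84 ± 0.141), CLDN7 (1.79 ± 0.0964), PRSS8 (2.08 ± 0.351), ELF5 (2.68 ± 0.308) and CDH1 (0.36 ± 0.0631). They had less EPCAM (-0.16), PKP3 (-0.29), PKP2 (-0.23), KRT8 (-0.10) and KRT19 (-0.22). Of the 30 epithelial genes 12 were higher and 5 lower, where 979 of all 14895 genes were higher and 1492 lower (16.6% in all). Early and late means in SW620-TET2CD were 0.314 and 1.62 CPM for PRSS8, 0.870 and 1.39 for ELF5, and 0.554 and 0.941 for CDH3, one of the 12. These are near the 0.444 and 0.817 CPM of GRHL2, so they too may have passed the filter through cells with a TET2 UMI. The count of higher genes is therefore a description. Of 14 mesenchymal genes 3 were higher, TAGLN (1.15), NT5E (0.71) and VIM (0.21), and 4 were lower, among them ITGA5 (-0.60). Among called genes that moved one way in all 4 libraries, the highest differences were those of SPANXB1 (3.98), ERVH48-1 (3.52) and FES (3.32), and the lowest were those of MUC1 (-1.99), TNFRSF18 and EFNA2 (-1.72).

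**Figure D4:**
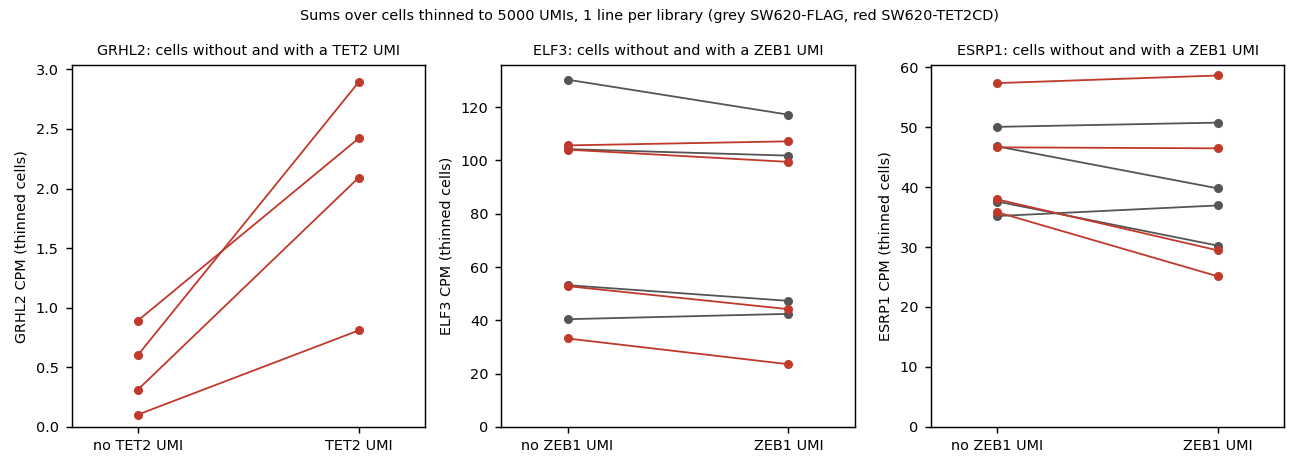
CPM (y axis) summed over thinned cells without and with a UMI of TET2 (left) or ZEB1 (middle and right), 1 line per library, grey for SW620-FLAG and red for SW620-TET2CD. GRHL2 is higher in cells with a TET2 UMI in 4 of 4 libraries, whereas ELF3 and ESRP1 are lower in cells with a ZEB1 UMI in 6 and 5 of 8.

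Cells with a ZEB1 UMI, 184 to 474 per library, were compared with cells without one over the 8 libraries. ELF3 (-0.18 ± 0.0598; edgeR, adjusted p = 0.0316) and ESRP1 (-0.23 ± 0.0760; adjusted p = 0.0361) were lower in them, 2 of 5 members tested against 7.6% of 15127 genes, whose median was -0.07. The differences were of 1.14-fold and 1.17-fold, were seen in 6 and 5 of 8 libraries, and were lost when any 1 of 6 libraries was left out (all except SW620-FLAG day 6 and SW620-TET2CD day 15). DESeq2 called no member. OVOL2, SNAI1 and SNAI2 did not pass.

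Among called genes that moved one way in all 8 libraries, the most raised beside ZEB1 were AC026401.3 (0.58), the scaffold protein AKAP12 (0.56 ± 0.0352, edgeR adjusted p = 1.12e-52) and AHNAK2 (0.54). The lowest of that kind were CALML3 (-1.04), PHGR1 (-0.75) and ALDH3A1 (-0.75). Of all 1150 genes called, 1046 were lower and 104 higher. The median of all genes tested was -0.065 in this fit, -0.012 unthinned and 0.0049 with DESeq2, so the balance may depend on the scaling. Of the epithelial genes, 6 of 29 were lower and none higher, among them EPCAM (-0.19) and RAB25 (-1.31), and of 14 mesenchymal genes 2 were higher, VIM (0.37 ± 0.0330) and ITGA5 (0.44), and 1 was lower, S100A4 (-0.07). These were named after their values were seen. Cells with UMIs of both ZEB1 and ELF3 numbered 615, where the product of the shares in each library sums to 653, and for ZEB1 with ESRP1 the numbers were 402 and 436. In thinned cells, 7.21 to 13.5% of a library had a UMI of an EMT factor and 29.99 to 55.4% one of a guard. Doublets were not called and free RNA was not measured, so a cell with UMIs of both classes need not express both. Low counts per cell mean that a cell without a UMI need not lack the transcript.

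The same split by SNAI1 called 132 of 15230 genes (0.867%) and by SNAI2 131 of 14454 (0.906%, 6 libraries), with no member passing in either by edgeR or DESeq2 and none with an unadjusted p under 0.05. Among called genes that moved one way in every library, the largest differences were the higher LINC01004 (0.85), BRD3OS (0.63) and RABL2B (0.53) and the lower SHOC2 (-0.61), CAV2 (-0.55) and IRF1 (-0.39) for SNAI1, and the higher ZNF197 (1.32), CST7 (0.73) and GADD45B (0.65) and the lower PTPRF (-1.13), ING4 (-0.93) and P3H4 (-0.92) for SNAI2. DESeq2 called only 5 and 0 genes. ZEB2 and TWIST1 had too few cells with a UMI (at most 8 and 0 per library) to be compared.

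In bulk RNA, levels on day 6 were higher in the metastatic SW620 than in SW480 for members of both classes. ELF3 was at 55.6 against 11.3 TPM (4.90-fold), SNAI1 at 10.99 against 3.21 (3.42-fold), ESRP1 at 61.9 against 22.8 (2.71-fold) and SNAI2 at 8.88 against 4.99 (1.78-fold). ZEB1, at 3.61 against 4.20, and OVOL2, at 6.89 against 7.03, were closer. With 1 library of each line, these differences have no replicate check. The effective length by which ELF3 was scaled was 1565 bases in SW480 and 1226 in SW620, which enters its ratio. In bulk, fewer cells of a kind and less RNA in each cell cannot be told apart.

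**Figure D5:**
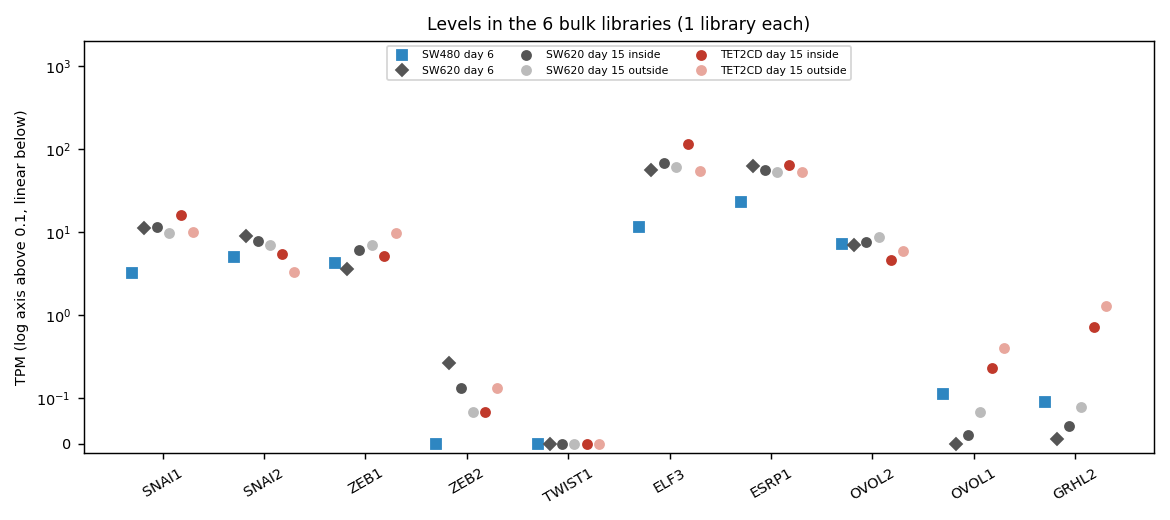
TPM (y axis, logarithmic above 0.1 and linear below) of each gene (x axis) in the 6 bulk libraries, 1 point each. SW480 is lowest for ELF3, ESRP1 and SNAI1, and both SW620-TET2CD libraries are highest for GRHL2 and OVOL1.

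Between cells outside and inside the colonies on day 15, no gene of 17722 passed with edgeR's quasi-likelihood test (0%), where 1068 had an unadjusted p under 0.05 and DESeq2 called 22. ELF3 was at 60.6 outside and 67.3 TPM inside in SW620-FLAG, while SW620-TET2CD had 53.6 and 114 TPM (-0.64 ± 0.265 over both lines; edgeR, adjusted p = 0.772). SNAI1 was at 9.66 and 11.3 TPM and at 9.99 and 15.8 TPM (-0.47 ± 0.208; adjusted p = 0.772). ZEB1 went the other way, at 6.96 and 6.03 TPM and at 9.66 and 5.13 TPM (0.32 ± 0.168; adjusted p = 0.778). For these 3 genes the direction was the same in both lines and the size larger in SW620-TET2CD, a difference that was not tested. The effective length of ZEB1 in SW620-TET2CD was 2778 bases outside and 3544 inside, which enters its TPM values. In SW620-TET2CD the level of TET2 itself was 124.3 TPM outside against 38.09 inside, and in SW620-FLAG it was 1.29 against 1.15 TPM, and its part in these differences was not tested.

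Bulk and single-cell values of the line and of time were set side by side. GRHL2 was at 0.71 and 1.26 TPM inside and outside in SW620-TET2CD, on 53 and 112 estimated counts, and at 0.040 and 0.080 TPM in SW620-FLAG, on 4 and 2 counts. In the same fit as location, a comparison added after the data had been seen, 73 of 17722 genes differed between the lines (0.412%) and no member did. GRHL2 (4.66 ± 0.554; edgeR, adjusted p = 0.0604) and OVOL1 (2.99 ± 0.659; adjusted p = 0.119) had the largest differences, and DESeq2 called GRHL2 (4.73). Both passed the filter on low counts only through SW620-TET2CD, since OVOL1 had 1.44 and 3 estimated counts in SW620-FLAG and 11 and 22.71 in SW620-TET2CD. SNAI2 was at 5.45 and 3.29 TPM in SW620-TET2CD and at 7.69 and 6.91 TPM in SW620-FLAG (-0.81 ± 0.279, adjusted p = 0.215).

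OVOL2 took opposite directions in both assays, at 4.60 and 5.81 against 7.44 and 8.60 TPM in bulk on day 15 (-0.72 ± 0.219, edgeR, adjusted p = 0.181). In the summed single cells it was 1.28-fold higher in SW620-TET2CD over all days and 1.37-fold on day 15. Neither difference passed. The sign also differed for ELF3 (-0.30 in single cells, 0.30 in bulk), ZEB1 (-0.12, 0.17), ESRP1 (-0.06, 0.08) and SNAI1 (-0.05, 0.22), none of which passed in the main fits. GRHL2 and SNAI2 kept their direction. For time, ZEB1 in SW620 was at 3.61 TPM on day 6 and at 6.03 and 6.96 TPM inside and outside on day 15 (1.67-fold and 1.93-fold). Its effective length was 3382 bases on day 6 and 2975 and 2819 on day 15, which enters these ratios. ELF3 was only 1.21-fold and 1.09-fold higher, and ESRP1 was 0.893 and 0.853 of its day 6 level, where the single-cell libraries gave rises for both. The cause of these differences between assays was not tested.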

How the data were processed

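Per the labels and the study's methods, the authors made single-cell UMI counts with Cell Ranger 4.0 (GRCh38) and deposited 1 matrix per library; bulk expected counts and TPM values were deposited as RSEM tables made with Bowtie. The labels name mm10 for the bulk tables, but their gene identifiers are human; the human annotation behind them is not stated. Whether RSEM counted by strand is not stated.

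With the limits of the study's methods, but on each library's own matrix and not after the study's aggregation to equal depth, so that the number of cells differs from the study's, cells were kept if they had 200 to 4500 genes, a UMI total of 1000 to 20000, and a mitochondrial share of no more than 10%; doublets were not called. UMIs were summed per library, and edgeR 4.0.16 (quasi-likelihood, TMM scaling, filterByExpr, Benjamini-Hochberg, threshold 0.05) tested late against early with a term for line, line with a term for day, their interaction, and location in bulk with a term for line (expected counts rounded, 1 residual degree of freedom). With 1 library per line and day, days stood in as replicates, so p-values measure the spread between these libraries. For shares of cells and splits by a UMI, cells with at least 5000 UMIs were thinned to 5000, and cells with fewer were left out. For splits, thinned cells were summed per library, with at least 50 cells on each side in at least 4 libraries. DESeq2 1.42.0 and the other alternatives are given in the closing part. The tests were tried on simulated data first. SEs were derived from the F statistic. Bulk values without a test are TPM. Genes named were all 10 members; in each list the 2 highest rises and 2 deepest falls, with at least 5 CPM on average, among genes past the threshold late against early; the 3 genes most correlated with each member at 5 CPM or more; and the 3 extremes of each split that moved one way in every library. The members and lists were chosen with earlier results of these data known. Gene positions are from GENCODE v44 (GRCh38), matched by Ensembl identifier. Some genes that the rule would name are not reported here.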

Additional observations from a re-analysis of the deposited data

Results flagged for a closer look

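For 3 of the 8 members that passed the filter on low counts, the difference between cells outside and inside the colonies on day 15 had opposite signs in the lines. Each line had 1 bulk library per place, so the difference between the lines was not tested. ZEB2, which did not pass the filter, had opposite signs too, on 2 to 4 estimated counts. The share of all genes with opposite signs was not counted, so nothing particular to these members is drawn. On the scale of log2(CPM + 1), outside minus inside, SNAI2 was at 0.034 in SW620-FLAG and -0.66 in SW620-TET2CD. ESRP1 was at 0.043 in SW620-FLAG and -0.38 in SW620-TET2CD. GRHL2 was at -0.091 in SW620-FLAG, on 4 and 2 estimated counts, and at 0.61 in SW620-TET2CD, on 53 and 112. On the TPM scale with a pseudocount of 1 the SW620-FLAG values of these genes changed sign, to -0.14 for SNAI2, -0.07 for ESRP1 and 0.05 for GRHL2. TPM also scales by effective length, which enters these values. Inside and outside in SW620-FLAG it was 5020 and 1296 bases for GRHL2, 1866 and 2136 for SNAI2, and 2850 and 3082 for ESRP1.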

How the results depend on the processing

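The rises of ELF3 and ZEB1 held in all 16 alternatives run, at 0.93 to 1.31 and 0.59 to 0.98 on the log2 scale for differences of late minus early. The fit with day as a number gave slopes of 1.58 and 1.20 per 9 days, a different quantity. Late against early called 2 members with every barcode kept, and 2 to 4 without 1 library. Upper-quartile scaling moved the median of all genes by 0.17 and the share of higher calls from 51.0% to 63.4%. The difference of GRHL2 ran from -0.12 to 0.66 without 1 library. For the line, 1489 genes were called with no filter, 46 without the term for day and 440 to 774 without 1 library, fewest without SW620-FLAG day 9; 0 members were called without the term for day, and 5 with every barcode (GRHL2, SNAI2, ELF3, OVOL1 and ZEB2). SNAI1 ran from -0.18 to 0.045 without 1 library. The interaction called 15 genes with no filter. Location called 22 genes with DESeq2 and 472 with no filter, with 1 member. The bulk line comparison called 710 genes and 1 member with DESeq2, 2239 and 3 with no filter, and 0 to 4191 and 0 to 4 without 1 library, fits with 3 libraries, no location term and 1 library alone in a line, which was assumed to vary like the other. For the split by ZEB1, DESeq2 called 280 genes and 0 members (ELF3 adjusted p = 0.185, none given for ESRP1), and leaving out 1 library called 426 to 1119 genes and 0 to 2 members. The SNAI1 split called 420 genes unthinned, 5 with DESeq2 and 38 to 190 without 1 library, and the SNAI2 split 433, 0 and 45 to 306. The TET2 split called 4 members unthinned, 1090 genes with DESeq2 and 1373 to 1937 without 1 library; GRHL2 was called in all 6 of its alternatives, at 1.90 to 3.05. The causes were not tested. No paired analysis by replicate number was possible because the labels give no replicate numbers shared between groups; the line fit and the splits already set libraries of the same day, or cells of the same library, against each other.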
